A study of Mus musculus with 4 samples.

Results

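The collagens of the mouse aorta and the enzymes and chaperones that process them were examined after long treatment with rosiglitazone. Members were the genes whose symbol has the form of a collagen chain, together with Lox, Loxl1, Loxl2, Plod1, Plod2, Plod3, P4ha1, P4ha2, P4hb, Serpinh1, Pcolce and Bmp1. They took up 59 of 12422 probe sets on the array (0.475%), for 40 genes, of which 31 were collagen chains and 9 were processing genes. Loxl2, Plod1 and Plod2 were not matched to a probe set with a single symbol. A probe set is a group of short oligonucleotides read together as 1 intensity for 1 transcript. Aortic RNA was pooled from adult male C57BL/6J mice and hybridised to 4 Affymetrix MG-U74Av2 arrays. The rosiglitazone group (arrays numbered 1 and 2) had received rosiglitazone, a drug that activates the nuclear receptor PPAR gamma, at 25 mg/kg per day for 21 days. The vehicle group (arrays 3 and 4) had received vehicle over the same 21 days, and no other treatment or allele is labelled in either group. The labels give neither the number of mice per pool nor whether a group's arrays stand for different pools, so p-values reflect array-to-array spread, possibly technical only.

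Collagens are the main tensile proteins of the vessel wall. Their chains are hydroxylated on proline and lysine in the endoplasmic reticulum, wind around each other into a long helix with the help of the chaperone HSP47, are secreted, lose their propeptides and are then cross-linked by lysyl oxidases. In the aorta, smooth muscle cells and adventitial fibroblasts deposit fibrils of types I, III and V, endothelial and smooth muscle cells lay down the type IV network of basement membranes, and type VI forms beaded filaments between them.

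The promoters of 3 genes are shown because these genes held all 4 member probe sets with an unadjusted p under 0.05. Each stretch is the 250 bases before the RefSeq transcript start, 5′ to 3′ on the gene's strand (build GRCm38.p6). Col1a2 lies at chr6:4505368-4505617, Col3a1 at chr1:45311288-45311537 and P4ha2 at chr11:54100674-54100923, all on the plus strand. Capitals mark matches, on either strand, to a CCAAT box (CCAAT), a GC box (GGGCGG) or a TATA box (TATAAA).
Col1a2: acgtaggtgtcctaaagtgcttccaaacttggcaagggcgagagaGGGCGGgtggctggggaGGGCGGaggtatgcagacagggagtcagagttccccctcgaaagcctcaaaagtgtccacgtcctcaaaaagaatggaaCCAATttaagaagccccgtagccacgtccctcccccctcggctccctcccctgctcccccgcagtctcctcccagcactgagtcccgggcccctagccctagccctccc
Col3a1: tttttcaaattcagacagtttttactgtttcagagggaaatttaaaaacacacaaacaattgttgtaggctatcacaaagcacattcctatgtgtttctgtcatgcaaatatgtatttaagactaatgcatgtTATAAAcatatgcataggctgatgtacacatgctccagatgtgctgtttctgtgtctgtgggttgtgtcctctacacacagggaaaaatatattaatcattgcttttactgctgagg
P4ha2: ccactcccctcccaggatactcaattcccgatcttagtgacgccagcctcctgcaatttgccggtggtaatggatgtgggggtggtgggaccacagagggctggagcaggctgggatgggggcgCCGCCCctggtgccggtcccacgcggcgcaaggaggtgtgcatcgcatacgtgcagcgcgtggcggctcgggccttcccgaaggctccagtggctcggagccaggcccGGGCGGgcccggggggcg
The Col1a2 stretch held a CCAAT box 109 to 105 bases before the start and 2 GC boxes farther upstream, at 205 to 200 and 188 to 183. In the Col3a1 stretch the only match to these motifs was a TATA box at 117 to 112, and P4ha2 had 2 GC boxes, at 126 to 121 on the opposite strand and at 18 to 13. RefSeq windows were found for 28 of the 40 member genes, 31 windows in all. A GC box occurred in 17 of these 31 (54.8%) against 32.7% of 32851 windows of the same length, a CCAAT box in 11 (35.5%) against 33.8%, and a TATA box in 5 (16.1%) against 12.4%. A direct repeat of AGGTCA with 1 base between the copies, a form of the site bound by PPAR and RXR dimers, was in none (0) of the 31 windows and in 11 of all windows (0.0335%). A match is a description of these letters and says nothing of whether a factor binds there.

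The arrays were alike in scale, with median intensities of 590 to 647. Smooth muscle actin (Acta2), smooth muscle myosin (Myh11) and transgelin (Tagln) were far above the low end of the scale on all 4 arrays, as the labelled tissue calls for. The brown fat gene Ucp1 was also bright, at 33472 to 97796 on 1 probe set, so the RNA was not of the vessel wall alone. Several marker lists had sums that differed between the groups. The summed intensity of 7 smooth muscle markers was 52596 and 56059 after rosiglitazone against 110430 and 132927 after vehicle, with all 7 tested probe sets below 0. For 8 fibroblast markers that are no collagens it was 90146 and 103436 against 125129 and 157191, most of it from Dcn, and without Dcn 22745 and 23414 against 26682 and 32479. Of the 11 tested fibroblast probe sets 8 lay below 0 (72.7%, against 51.9% of all probe sets tested). In limma 0 of them passed and 2 had an unadjusted p under 0.05 (18.2%, against 10.9% of all). Of the 7 smooth muscle probe sets 1 passed and 6 had an unadjusted p under 0.05 (85.7%). Among the 6 was Smtn 98559_at, at 285 and 346 with rosiglitazone and 1698 and 1705 with vehicle. Smtn was bright enough to be tested only through its vehicle arrays. For 7 brown adipocyte markers the summed intensity was 421008 and 462205 against 301908 and 302653, most of it from Cidea. All 7 tested brown adipocyte probe sets lay above 0. Of them 1 passed in limma, Fabp3 (log2 fold change 1.55, adjusted p = 0.024). For 6 macrophage markers the sums were 14042 and 10923 against 40076 and 41648. Cd14 made up most of the macrophage difference, and without it the sums were 10546 and 7281 against 12547 and 14818. For 4 white adipocyte markers the sums were 174912 and 205707 against 137062 and 148808, most of it from Adipoq. Of their 4 tested probe sets 3 lay below 0. The sums of 4 chondrocyte markers, most of them too dim to test, were 987 and 1388 against 899 and 904. The ratio of 3′ to 5′ signal, a gauge of RNA integrity, was 7.74 to 11.9 for actin, with overlap between the groups, and for Gapdh 8.79 and 10.8 with rosiglitazone and 11.1 on both vehicle arrays. The part of these differences in the collagen values was not tested.

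No collagen or processing probe set differed between rosiglitazone and vehicle beyond the spread between arrays once all probe sets on the array were taken into account. Intensities were floored at 148 and put on the log2 scale, and a probe set was tested when its mean reached an intensity of 414. Of the 59 member probe sets 42 were tested, covering 28 genes, and 0 passed an adjusted p of 0.05 (limma with Benjamini-Hochberg adjustment), where 26 of 7134 probe sets on the whole array did (0.364%). With 1 array left out the count stayed at 0, except that without rosiglitazone replicate 2 it was 1, a Col3a1 probe set. An unadjusted p under 0.05 was reached by 4 members (9.52%), 1 higher and 3 lower, against 10.9% of all probe sets, 5.12% higher and 5.76% lower. The groups did not overlap for 18 members (42.9%), 9 higher and 9 lower, against 40.8% of all probe sets (19% higher and 21.8% lower). A change of at least 1.5-fold was seen for 3 members upward and 7 downward (23.8% together), against 13.2% and 16.6% of all. Below 0 lay 22 of the 42 fold changes (52.4%), against 51.9% overall. The members' median log2 fold change was -0.02, and that of all probe sets was -0.02 as well, so as a group these genes did not stand out from the array. The members' median turned to 0.06 with centring of the arrays on their medians, and to 0.01 with quantile normalization. The whole array moved as well. Below 0 lay 19 of 42 members and 3219 of all 7133 probe sets with centring, and 21 and 3510 with quantile normalization.

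The precision behind these counts was limited by the number of arrays. To pass the adjusted threshold, a member needed a log2 difference of 2.36 at the median of the 42 probe sets, from 1.36 for the most precise to 5.82 for the least. The median standard error of a member's log2 fold change was 0.39. Observed differences under these sizes could thus not pass, so members that did not pass are not shown to be unchanged.

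Chains and processing genes had medians of opposite sign, both close to 0. Among 27 tested probe sets of collagen chains 18 lay below 0, with a median of -0.10, and among 15 probe sets of processing genes 11 lay above 0, with a median of 0.09. Fold changes of chains ran from -1.999 to 0.60 and those of processing genes from -0.89 to 1.57. With the arrays centred on their medians the chains were at -0.01 and the processing genes at 0.18, and without vehicle replicate 4 the median of the processing genes was -0.12. The difference between these groups of genes has no test, because genes are not replicates.

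**Figure D1:**
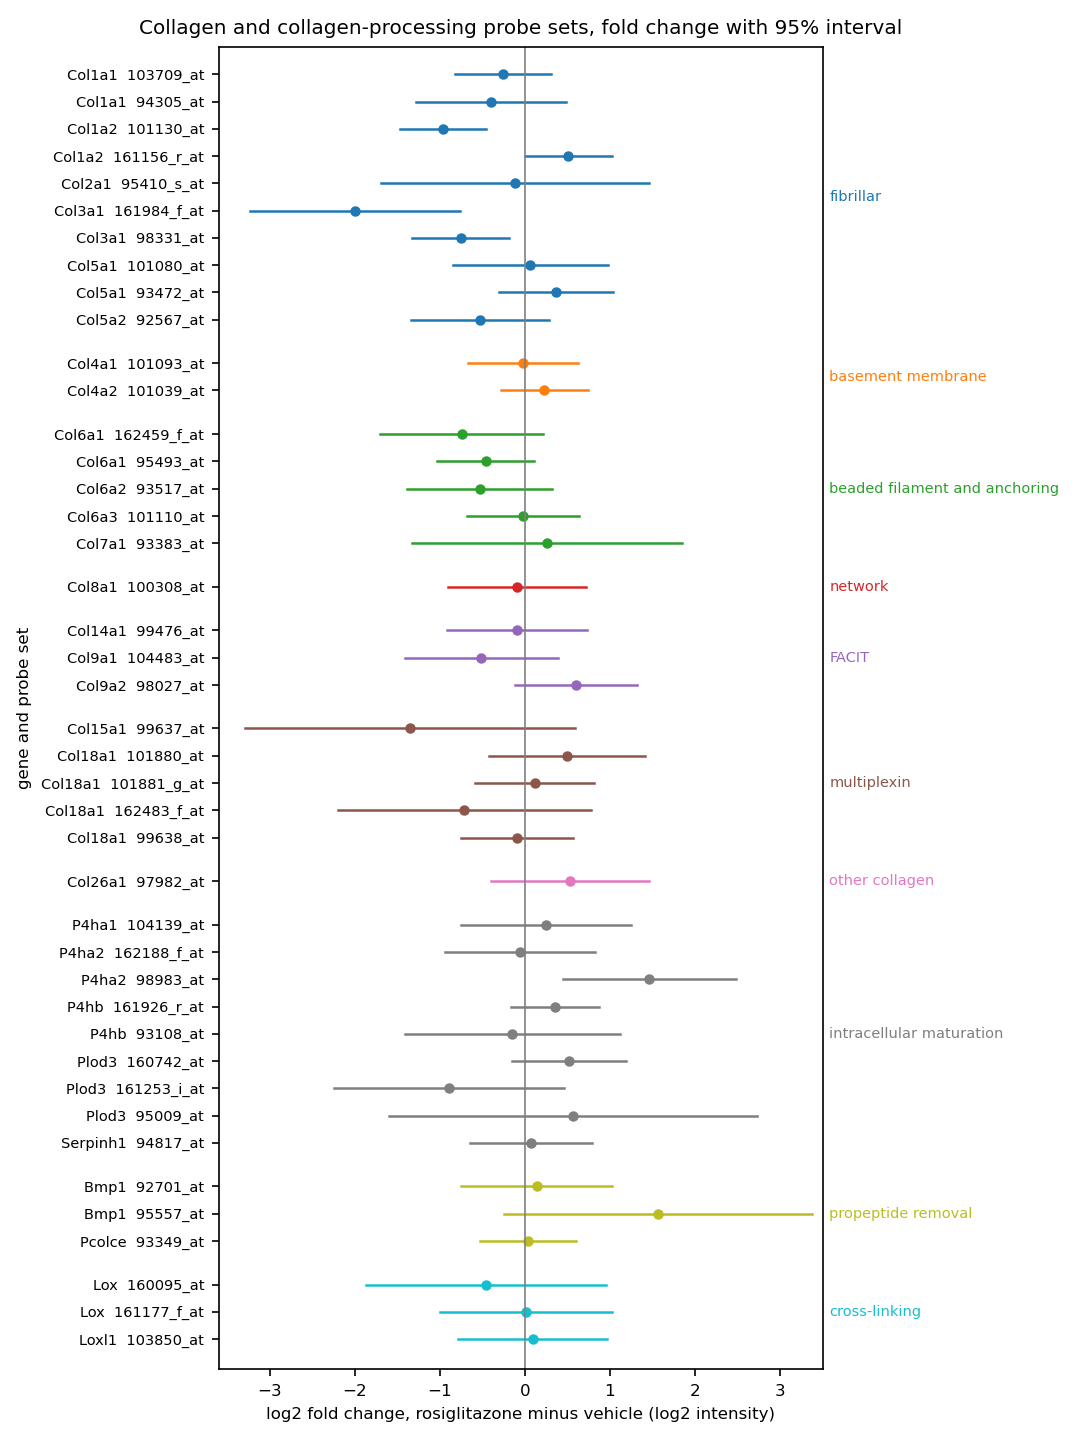
Log2 fold change of each tested collagen and collagen-processing probe set (rosiglitazone minus vehicle, 2 arrays each, horizontal axis) with its 95% interval from limma, grouped and coloured by class. The intervals of Col1a2 101130_at, of both Col3a1 probe sets and of P4ha2 98983_at lie on 1 side of 0, and every other interval reaches across it.

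**Figure D2:**
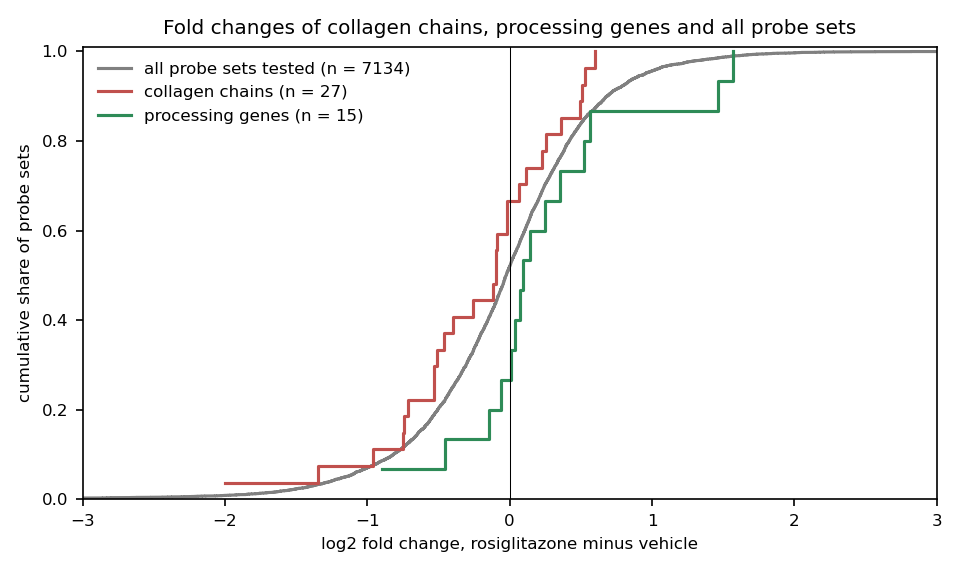
Cumulative share of probe sets (vertical axis) by log2 fold change, rosiglitazone minus vehicle (horizontal axis, shown from -3 to 3), for 27 probe sets of collagen chains, 15 of processing genes and all 7134 tested. The curve of the chains runs mostly to the left of the curve of all probe sets, with a median of -0.10, and that of the processing genes to the right, with a median of 0.09.

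Of the 4 member probe sets with an unadjusted p under 0.05, 3 belonged to fibrillar chains, in types I and III. Of 10 tested fibrillar probe sets 7 lay below 0 (70%, against 51.9% of all), with a median of -0.33. Those 3 (30% of the 10, against 10.9% of all) were 1 of Col1a2 and 2 of Col3a1. The fibrillar median was 0.02 without rosiglitazone replicate 1 and -0.62 when replicate 2 was omitted. Col3a1, the chain of type III collagen, which is plentiful in elastic arteries, read 2849 and 3836 after rosiglitazone against 5628 and 5507 after vehicle on probe set 98331_at. Both rosiglitazone arrays were below both vehicle arrays, by 1.68-fold (log2 fold change -0.75, standard error 0.25, limma adjusted p = 0.314). The dimmer Col3a1 probe set 161984_f_at read 274 and 717 with rosiglitazone and 1646 and 1907 with vehicle. Here too the groups did not overlap, and the difference was 3.997-fold (log2 fold change -1.999, SE 0.55, limma adjusted p = 0.19). Without rosiglitazone replicate 2 it became -2.69 with an adjusted p of 0.0396, and without rosiglitazone replicate 1 it was -1.31. Another Col3a1 probe set, 102990_at, was too dim to test, at 27 and 74 with rosiglitazone and 103 and 285 with vehicle, 3 of these values being under the floor. The tested Col3a1 probe sets thus gave the same order of the groups, and differences of unlike size. In pooled tissue RNA, fewer cells of a type and less RNA per cell cannot be told apart, and the marker values of smooth muscle and fibroblasts on these arrays are given above.

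Type I collagen, the main fibril of the adventitia, is built from the chains of Col1a1 and Col1a2. Col1a2 gave opposite answers on its probe sets. With 101130_at it read 5593 and 7135 with rosiglitazone and 13123 and 11486 with vehicle. Both rosiglitazone arrays were lower, by 1.94-fold, with the smallest p of any member tested (log2 fold change -0.96, standard error 0.22, limma adjusted p = 0.116). With 161156_r_at it read 5761 and 6483 with rosiglitazone and 4262 and 4320 with vehicle. On this probe set both rosiglitazone arrays were higher, by 1.42-fold (log2 fold change 0.51, standard error 0.23, limma adjusted p = 0.46). Neither direction turned when an array was left out, with ranges of -1.13 to -0.78 and 0.43 to 0.60. No direction can therefore be given for Col1a2 as a gene. In the naming of this array, the suffix _r marks a probe set for which some design rules were relaxed, and _f one whose probes may also bind related sequences. Whether either bears on these values was not tested.

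Col1a1 did not separate the groups. Its brighter probe set 103709_at read 5142 and 7473 with rosiglitazone and 6921 and 7921 with vehicle (log2 fold change -0.26, 95% interval -0.82 to 0.31), and 94305_at read 1276 and 2553 against 2013 and 2814 (-0.40, -1.28 to 0.48). On both probe sets rosiglitazone replicate 1 was the lowest of the 4 arrays, and without it the fold changes were 0.01 and 0.10.

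Type V chains join type I in the same fibrils and limit their width. Col5a1 had overlapping groups on both probe sets, with log2 fold changes of 0.36 on 93472_at, which read 2471 and 3250 with rosiglitazone and 2485 and 1953 with vehicle, and 0.06 on 101080_at, which stayed between 939 and 1065 on all 4 arrays. Col5a2 read 1053 and 1108 with rosiglitazone and 1403 and 1734 with vehicle. Its groups did not overlap, and the log2 fold change was -0.53 (95% interval -1.34 to 0.28, limma adjusted p = 0.64). Col5a2 and Col3a1 are neighbours in the RefSeq table, with no protein-coding gene between them. Col2a1, the fibrillar collagen of cartilage, was near the filter, at 340 and 728 with rosiglitazone and 606 and 482 with vehicle, and overlapped.

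**Figure D3:**
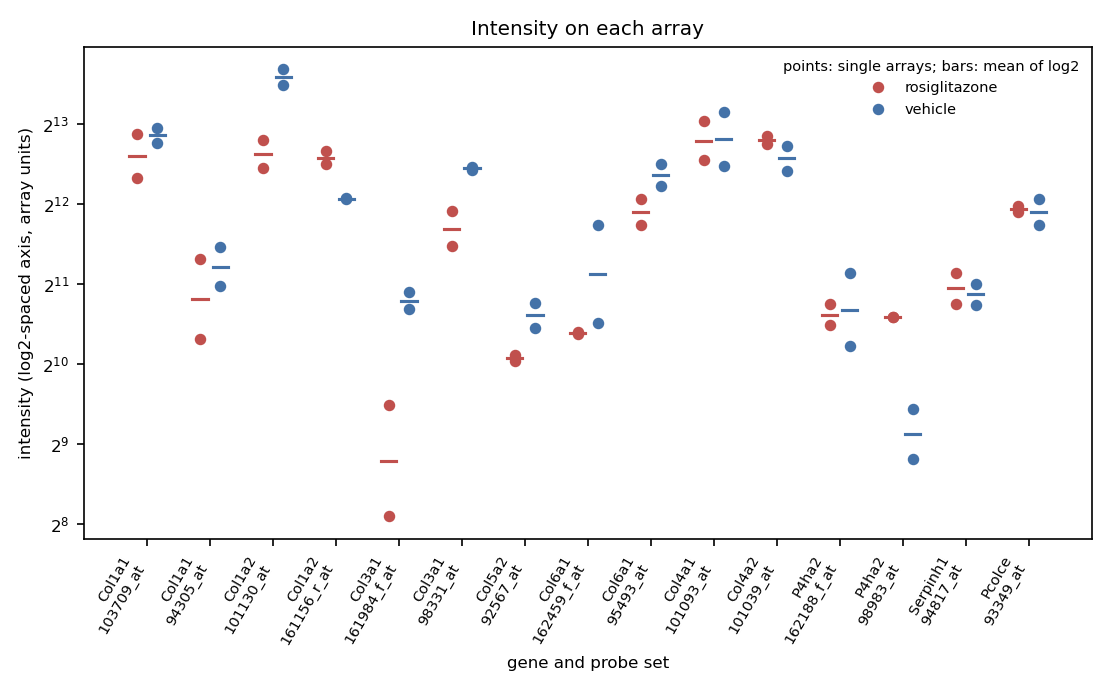
Intensity on each of the 4 arrays (vertical axis, log2-spaced) for probe sets of fibrillar, type IV and type VI chains and of processing genes, with single arrays as points and the mean of the log2 values as bars, rosiglitazone in red and vehicle in blue. The rosiglitazone points lie below the vehicle points on Col1a2 101130_at, on Col5a2 and on both probe sets of Col3a1 and of Col6a1. They lie above the vehicle points on Col1a2 161156_r_at, Col4a2 and P4ha2 98983_at, and the other probe sets shown overlap.

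Basement membrane chains were near level between the groups. Col4a1 and Col4a2 encode the chains of the common type IV network and are divergently transcribed, and their RefSeq starts lie 21 bases apart. Col4a1 read 8407 and 5970 with rosiglitazone and 5691 and 9075 with vehicle (log2 fold change -0.02, 95% interval -0.67 to 0.63). Col4a2 read 6899 and 7344 against 6759 and 5458 (0.23, -0.28 to 0.74). Col4a2 was higher on both rosiglitazone arrays by a margin within the spread, and Col4a1 had its highest and its lowest value both in the vehicle group. The intervals leave room for a change of up to 0.74 upward or 0.67 downward on the log2 scale.

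Type VI chains assemble into the beaded filaments that surround cells. Col6a1 read 3402 and 4285 with rosiglitazone and 4772 and 5795 with vehicle on 95493_at (log2 fold change -0.46, limma adjusted p = 0.56). On 162459_f_at it read 1346 and 1323 against 1458 and 3424 (-0.74, adjusted p = 0.578), a difference that was -0.13 without vehicle replicate 4. The Col6a1 groups did not overlap on either probe set. Col6a2, the neighbour of Col6a1 in the RefSeq table, read 1754 and 1459 with rosiglitazone and 1652 and 3236 with vehicle, and its log2 fold change of -0.53 became -0.05 without vehicle replicate 4. Col6a3 was level, at 2223 and 2011 against 1982 and 2318 (-0.02, 95% interval -0.68 to 0.64). High values of vehicle replicate 4 thus made up most of the difference in Col6a2 and in 162459_f_at. Col7a1, the chain of anchoring fibrils under epithelia, read 711 and 1226 with rosiglitazone, within the 367 and 1666 of the vehicle arrays.

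The remaining chains covered the network, fibril-associated and multiplexin classes. Col8a1, a short-chain collagen of vascular cells, read 1190 and 1695 with rosiglitazone and 1694 and 1353 with vehicle (log2 fold change -0.09, 95% interval -0.91 to 0.72). Col14a1, a collagen on the surface of fibrils, was level at 1167 and 1241 against 1171 and 1404 (-0.09). Neither separated the groups. Col9a1 and Col9a2, fibril-associated chains best known from cartilage, differed in sign. Col9a1 read 1187 and 817 with rosiglitazone and 1556 and 1265 with vehicle (-0.51), whereas Col9a2 read 2949 and 4236 against 1894 and 2869 (0.60, adjusted p = 0.547 in limma). In both genes the groups did not overlap. Of 4 chondrocyte markers on the array that are no collagens, only Acan was bright enough to test, and it overlapped, at 822 and 677 with rosiglitazone and 687 and 302 with vehicle.

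Col18a1, whose C-terminal fragment is endostatin, had 5 probe sets, of which 4 were tested. The brightest, 99638_at, read 4255 and 3997 with rosiglitazone and 3403 and 5706 with vehicle (log2 fold change -0.10, 95% interval -0.75 to 0.56). The others ranged from -0.71 on 162483_f_at (377 and 480 against 513 and 950) to 0.50 on 101880_at (1354 and 1108 against 803 and 940), and these last probe sets separated the groups in opposite directions. Between them, 101881_g_at was level at 2116 and 1739 against 1791 and 1754 (0.11). Col15a1, a related multiplexin of vascular basement membranes, read 84 and 888 with rosiglitazone and 1162 and 732 with vehicle. Its log2 fold change of -1.35, with 1 array at the floor, was -0.05 without rosiglitazone replicate 1 and -2.64 when replicate 2 was omitted instead, so a single array decided it. Col26a1 read 1205 and 1156 against 789 and 846, higher on both rosiglitazone arrays (0.53, adjusted p = 0.701).

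Chains too dim to test made up the other 17 member probe sets, and 12 genes had no tested probe set at all. These genes were Col4a3, Col4a4 and Col4a5 of specialised basement membranes, Col9a3, Col10a1, Col11a1, Col11a2, Col12a1, Col13a1, Col17a1, Col19a1 and Col22a1. Intensities of the 17 probe sets ran from 27 to 750 with a median of 236, and 22 of their 68 values were under the floor of 148. The groups did not overlap for 5 of the 17, with Col11a1 (458 and 718 with rosiglitazone, 202 and 257 with vehicle) among the 3 that were higher and Col9a3 102070_at (266 and 72 against 653 and 750) among the 2 that were lower. The other Col9a3 probe set, 162103_i_at, was among the higher ones (323 and 127 against 88 and 47, with 3 of these values under the floor). No direction is therefore given for Col9a3 as a gene. Of all 5288 untested probe sets 34.5% did not overlap, 16.3% higher and 18.2% lower. These examples were chosen after their values were seen.

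Among the enzymes that act inside the cell, P4ha2 had the clearest difference, on 1 of its probe sets. P4ha2 is a catalytic subunit of prolyl 4-hydroxylase, whose hydroxyprolines keep the collagen helix stable at body temperature. Probe set 98983_at read 1542 and 1540 with rosiglitazone and 450 and 692 with vehicle. Both rosiglitazone arrays were higher, by 2.76-fold (log2 fold change 1.47, standard error 0.45, limma adjusted p = 0.249). It stayed between 1.16 and 1.78 with an array left out. The other probe set, 162188_f_at, read 1718 and 1436 with rosiglitazone, inside the vehicle range of 1193 to 2246 (-0.06, 95% interval -0.94 to 0.82). Thus 98983_at separated the groups and 162188_f_at did not.

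**Figure D4:**
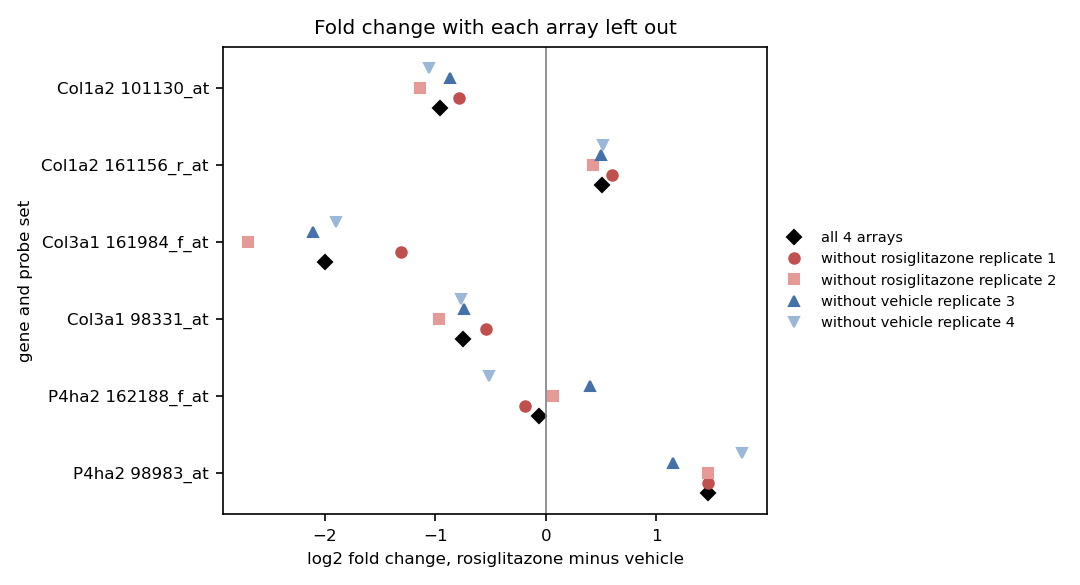
Log2 fold change, rosiglitazone minus vehicle (horizontal axis), of the probe sets of Col1a2, Col3a1 and P4ha2 named on the vertical axis, with all 4 arrays (diamond) and with each array left out (other symbols). Col1a2 101130_at stays between -1.13 and -0.78 and P4ha2 98983_at between 1.16 and 1.78, while P4ha2 162188_f_at crosses 0.

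The other subunits of the enzyme were closer to level. P4ha1, an alternative catalytic subunit, read 954 and 1030 with rosiglitazone and 713 and 974 with vehicle (log2 fold change 0.25, 95% interval -0.75 to 1.25). P4hb, the beta subunit that joins either of them, which is also the protein disulfide isomerase, read 8302 and 8212 against 7393 and 5628 on 161926_r_at, where the groups did not overlap (0.36, adjusted p = 0.624 in limma). On the dim P4hb probe set 93108_at the groups overlapped (551 and 692 against 821 and 570, -0.15).

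Plod3, a lysyl hydroxylase that also adds sugars to hydroxylysine, had 3 tested probe sets that did not point 1 way. The brightest, 160742_at, read 3055 and 2418 with rosiglitazone and 1725 and 2084 with vehicle (log2 fold change 0.52). On 161253_i_at it read 560 and 346 against 784 and 854 (-0.89), so the groups were separated in opposite directions. The dimmest, 95009_at, read 464 and 664 with rosiglitazone and ran from 136 to 953 within the vehicle group alone (0.56, with 1 array at the floor). Serpinh1, which encodes HSP47, the collagen-specific chaperone, was level at 2262 and 1728 with rosiglitazone and 2056 and 1714 with vehicle (0.07, 95% interval -0.64 to 0.79).

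Outside the cell, propeptide removal and cross-linking showed no separation that held on every probe set. Pcolce, the enhancer of procollagen C-proteinase, read 3813 and 4030 with rosiglitazone and 4269 and 3403 with vehicle (log2 fold change 0.04, 95% interval -0.53 to 0.61). Bmp1, the C-proteinase itself, read 1056 and 1479 against 1008 and 1275 on 92701_at (0.14). On the dim 95557_at it read 904 and 693 against 461 and 155, both rosiglitazone arrays being higher and the vehicle mean below the filter's intensity (1.57, standard error 0.80, limma adjusted p = 0.536), and this value ran from 0.78 to 2.35 with an array left out. Lox, the lysyl oxidase that starts cross-linking of collagen and elastin, overlapped on both probe sets, at 390 and 633 against 563 and 821 on 160095_at (-0.45) and 778 and 1220 against 1075 and 867 on 161177_f_at (0.01). Loxl1, needed mainly for elastic fibres, read 1329 and 1309 with rosiglitazone and 1553 and 983 with vehicle (0.09, 95% interval -0.78 to 0.97).

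Agreement between probe sets of a gene was a limit of its own for these genes. Of the 11 member genes with several tested probe sets, 6 had probe sets of both signs (54.5%), against 351 of 812 genes on the whole array (43.2%). Among genes with exactly 2 tested probe sets, the median gap between their log2 fold changes was 0.50 for 9 member genes and 0.47 for all 712 genes. A gap over 1 was found for 4 of the 9, namely Col1a2, Col3a1, P4ha2 and Bmp1, against 132 of the 712 (18.5%). The member probe sets with an unadjusted p under 0.05 thus all came from genes whose other probe set differed from them by more than 1 on the log2 scale. The excess of 3′ over 5′ signal on all arrays was given above, and its part in these gaps was not tested.

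Other genes of the collagen pathway, listed by role, gave 1 called probe set, among the proteins that bind collagen. For maturation, 12 further genes were tested on 13 probe sets, with 6 below and 7 above 0 and a median of 0.01, which ran from -0.30 to 0.17 with an array left out. Here 0 passed in limma and 2 had an unadjusted p under 0.05, Sec23a, a coat protein of vesicles that leave the endoplasmic reticulum (-1.19), and P3h3, of the prolyl 3-hydroxylase family (-1.85). This share of 15.4% compares with 10.9% of all probe sets tested. P3h3 read 985 and 182 with rosiglitazone and 1597 and 1455 with vehicle, so the size of its difference rested largely on rosiglitazone replicate 2. Proteins that bind collagen or signal from it had 19 of 25 probe sets below 0, where 51.9% of all probe sets lay, and a median of -0.56. Of these 1 passed the threshold over all probe sets, Ogn, the small proteoglycan osteoglycin, which read 1419 and 937 with rosiglitazone and 5343 and 4821 with vehicle on 160877_at (log2 fold change -2.14, limma adjusted p = 0.0243). Its other tested probe set, 99549_at, read 2032 and 1119 against 1311 and 1521 with overlap (0.09, adjusted p = 0.956), so no direction is given for Ogn as a gene. The Ogn call was lost with the arrays centred on their medians (adjusted p = 0.0591), without the filter (0.296), without the intensity trend (0.285) and without vehicle replicate 3 (0.545) or 4 (0.672), at log2 fold changes of -2.21 to -2.06. A further 7 had an unadjusted p under 0.05 and did not pass, which with Ogn makes 32% of the list against 10.9% of all, among them the fibril-binding proteoglycans Fmod (-2.30 on 99152_at), Bgn (-0.86 on 96049_at) and Dcn (-0.59) and the matricellular protein Postn (-0.96). Other probe sets of Fmod (0.41 on 161373_r_at) and Bgn (-0.23 on 162347_f_at) did not reach it, and that of Fmod had the opposite sign. Fmod 99152_at read 512 and 191 with rosiglitazone and 1711 and 1389 with vehicle. Its rosiglitazone mean was below the filter's intensity, so it passed the filter only through the vehicle arrays. Smooth muscle markers were lower on the same arrays, with all 7 tested probe sets below 0 and 1 past the threshold. Of these, Smtn 98559_at passed the filter only through the vehicle arrays. Of the fibroblast markers, Dcn, Lum and Fn1 are also in the binding list, and Fn1, Fbln1 and Mfap5 each had a probe set above 0. The part of either cell type in this was not tested.

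Genes of collagen breakdown and uptake had 15 of 18 probe sets below 0 (83.3%, against 51.9% of all) and a median of -0.52. Timp2 93507_at and Ctsb 162271_f_at, like Mmp9 below, passed the filter only through the vehicle arrays. Without the filter 20 of 30 probe sets lay below 0 and 9 above, with a median of -0.38. In the main fit 0 passed the threshold in limma and 5 had an unadjusted p under 0.05 (27.8%, against 10.9% of all). Mmp9, the gelatinase of leukocytes, read 101 and 187 after rosiglitazone against 1260 and 1062 after vehicle (-2.80, adjusted p = 0.173). It passed the filter only through the vehicle arrays, and with 1 rosiglitazone array under the floor its fold change is not exact. Mmp12, the macrophage elastase, read 559 and 917 against 2008 and 2400 on 95339_r_at (-1.62, adjusted p = 0.143 in limma). Its other probe set, 95338_s_at, was too dim to test and overlapped (102 and 540 against 665 and 432). The lysosomal cathepsins Ctss (-1.09) and Ctsb (-0.83 on 92256_at) and the inhibitor Timp3 (-0.57) made up the rest of the 5. The other tested Ctsb probe sets also lay below 0 but did not reach an unadjusted p of 0.05. On the brightest of them, 94831_at, the groups overlapped (-0.37). Macrophage markers were lower on the same arrays, with all 7 tested probe sets below 0 and most of their summed difference from Cd14. Of these, Adgre1 103507_at passed the filter only through the vehicle arrays, and Csf1r 161832_r_at was near level (-0.02). Adgre1 161377_at, too dim to test, was higher with rosiglitazone (156 and 212 against 15 and 33). The part of macrophages was not tested. Regulators of collagen genes had 16 of 22 probe sets below 0 (72.7%, against 51.9% of all) and a median of -0.19, and 0 passed in limma. An unadjusted p under 0.05 was reached by 3 (13.6%, against 10.9% of all). These were Ccn2, the connective tissue growth factor (-0.99), Smad7, an inhibitor of TGF-beta signalling (-1.34), and the transcription factor Sp1, which binds GC boxes (-0.92). Below 0 lay 12 of the 22 regulator probe sets without rosiglitazone replicate 1, and 21 of 33 without the filter (median -0.11). Pdgfra, in this list, is also among the fibroblast markers.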

How the data were processed

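Array values were available for 4 samples, 2 per group. The deposited intensities are whole numbers on a linear scale, 1 per probe set and array; the software and background correction behind them are not given in the sources used here. Of 12488 probe sets 66 controls were left out. Gene names are those of the platform annotation, updated by gene identifier (GRCm38.p6, 10817 of 10833 found, 0 symbols changed); probe sets with several symbols were not named. Array medians differed by at most 0.13 (log2), under the limit of 0.2, so the scaling was kept.

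Values under the 20th percentile (148) were raised to it. Probe sets with a mean log2 intensity at or above the 40th percentile (414) were tested with limma 3.58.1 in R 4.3.3 (lmFit, eBayes with intensity trend, two-sided, 2 residual and 7.14 prior degrees of freedom), Benjamini-Hochberg adjusted over all 7134. The procedure was tested on simulated data. The smallest exact permutation p for 2 against 2 arrays is 0.333, so no permutation test was used. Intervals are limma's 95% intervals.

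Members and lists were chosen with earlier results of these data known, and marker sums without Cd14 or Dcn were added after seeing the values. Array values are given for the main aortic chains, every processing gene, every member with an unadjusted p under 0.05 and genes whose probe sets disagreed in sign with 1.5-fold in one; the other tested chains and some dim ones were added.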

Additional observations from a re-analysis of the deposited data

How the results depend on the processing

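The count of member probe sets past the threshold was 0 under median centring, quantile normalization, floors at the 10th and 30th percentile, no filter and no intensity trend, and 0 to 1 with an array left out (Col3a1 161984_f_at, log2 fold change -2.69, adjusted p = 0.0396 in limma). Over the whole array 26 became 17 with median centring, 0 without the filter (1202 at an unadjusted p under 0.05), 7 without the trend and 1 to 78 with an array left out. The members' median moved from -0.02 to 0.0625 with median centring, and lay between -0.0898 and 0.0355 with an array left out. Centring also moved the whole array, from 3705 of 7134 probe sets below 0 to 3219 of 7133. Of 42 tested members 23 kept their sign under every alternative run. The causes were not tested. No paired analysis was possible because the groups share no replicate numbers. With 1 array left in a group, that array is assumed to vary like the other group.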
